A study of Mus musculus with 15 samples.

Results

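The comparison of postnatal day (P) 21 with P14 in the mouse auditory nerve covers the week that follows the onset of hearing. It rests on 6 of 15 libraries of bulk RNA sequencing, 3 per age, chosen by their age labels alone, and on every gene of the deposited table. Each library was made from the total RNA of both cochleae of 1 mouse, after the nerve had been dissected free of the cochlea. The remaining libraries, 3 each of P3, P7 and adult nerve, served to estimate the spread and to give levels before and after. The labels used here name no strain, sex, litter, genotype or treatment, so the groups are described by age only. Replicates were separate mice, and p-values measure the spread between them. Levels are normalized read counts, the authors' read counts divided by 1 size factor per library. A gene rose or fell when its limma adjusted p (two-sided, Benjamini-Hochberg) was under 0.05 among the 16723 of 18536 genes that reached a normalized count of 10 in 3 or more libraries. Log2 fold changes were computed after adding 1 to each value and are given with a standard error (SE). Every comparison had n = 3 per age.

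The auditory nerve holds the spiral ganglion neurons, whose axons carry sound signals from the hair cells to the brainstem, the Schwann cells that myelinate them in the cochlea and the oligodendrocytes that take over at the central end. It runs inside the bony core of the cochlea, so a dissection can also take along fibroblasts, bone-forming cells, blood and cells of the lateral wall and sensory epithelium. Fibrous tissue and bone are laid down as fibrils of type I, III and V collagen, cartilage and the cochlear membranes as fibrils of type II, IX and XI collagen. Each collagen chain is hydroxylated, folded by chaperones, trimmed outside the cell and crosslinked before it lasts, and lysyl hydroxylases, prolyl hydroxylases, procollagen proteinases and lysyl oxidases are the enzymes of these steps. In a bulk sample fewer cells of a type and less RNA per cell cannot be told apart.

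The 6 libraries held between 38114662 and 42258737 reads, and 3 reads, the floor of detection, corresponded to a normalized count between 2.81 and 3.22. All 24 listed neuron genes and all 6 compact myelin genes passed the filter on low values. All 18 hair cell genes and all 14 osteoclast genes passed it too, so passing it cannot check the labelled tissue. The most abundant gene was Coch, a fibrocyte gene, in each of the 6 libraries except P14 replicate 3, where it was Mbp, a myelin gene. Libraries stood apart in 3 ways. P14 replicate 3 had the highest sum of 16 oligodendrocyte genes (79130, against 26267 and 38372 in the other P14 libraries and 29458 to 46804 at P21). P21 replicate 2 was low in long and high in short transcripts. P14 replicate 1 and P21 replicates 1 and 2 had the female pattern (Eif2s3y, a Y-linked gene, at 0), while P14 replicates 2 and 3 and P21 replicate 3 had the male pattern. The log2 values varied more among the P14 and P21 libraries (mean variance 0.191 and 0.24) than at P3, P7 and in adults (0.109, 0.0926 and 0.167). The 5 ages share 1 estimate of the spread in the fit, and a fit that weights the spread of each age is given beside it.

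Of the genes tested, 550 (3.29%) rose and 1003 (6.0%) fell from P14 to P21, 9.29% in all. Among them 100 rose and 212 fell by at least 2-fold, together 1.87% of the genes tested. The median log2 fold change of all genes was 0.004. The 3 libraries of one age did not overlap those of the other in 24.4% of genes, 11.2% with P21 higher and 13.2% with P21 lower. The counts depended on how the spread was estimated: 57 rose and 285 fell with the spread of each age weighted, and 27 and 110 with only the 6 libraries in the fit. Without P14 replicate 3 the counts were 153 and 478, without P14 replicate 2 they were 321 and 658, and with the Eif2s3y-low libraries left out, which leaves P21 with 1 library, they were 205 and 549. With TMM scaling 449 rose and 1115 fell. In every one of these fits more genes fell than rose. Of the 1553 genes, 33 (2 higher and 31 lower) were called in each of the 30 other fits run without a minimal fold change, and none of the 1553 changed direction in any of them. The fit of the 6 libraries alone ended the call of most genes and is given below for several lists.

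**Figure D1:**
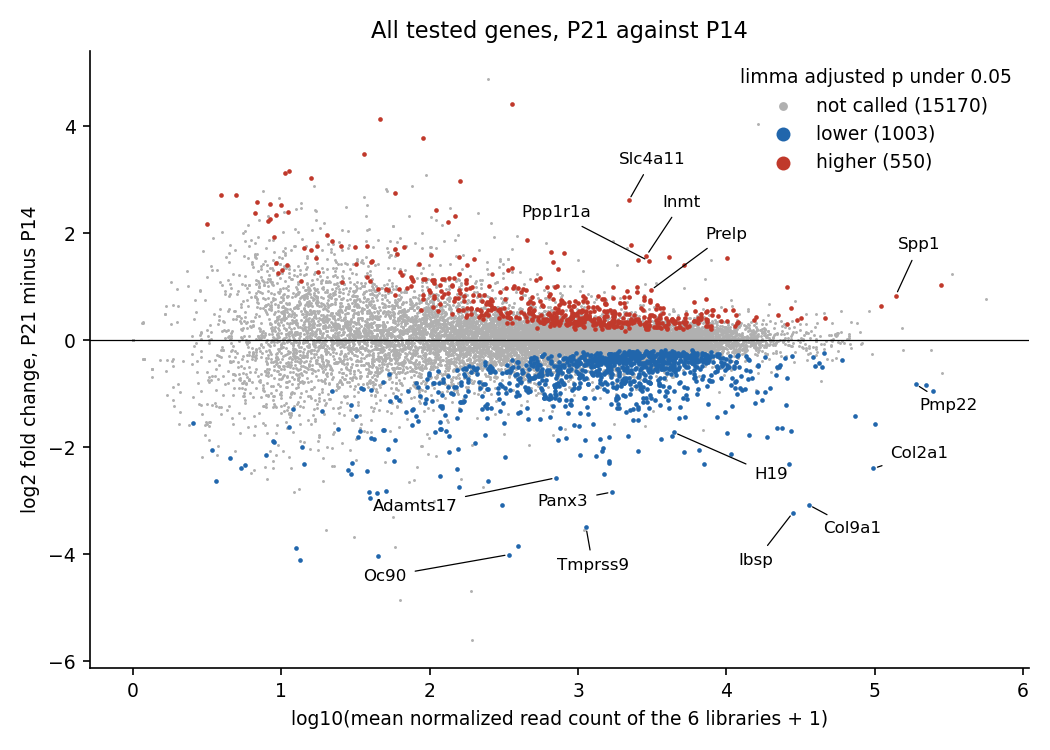
Log2 fold change of each tested gene, P21 minus P14 (vertical axis), against the log10 of the mean normalized read count of the 6 libraries plus 1 (horizontal axis); red points rose, blue points fell and grey points were not called. The largest falls at high level are Col9a1, Col2a1 and Ibsp, and 1003 genes fell against 550 that rose.

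Of the 8 collagen genes of the cartilage list 6 fell, all of them chains of type II, IX and XI collagen. Col9a1, which codes for a chain of type IX collagen, a molecule that sits on the surface of type II fibrils (chromosome 1, 24177610 to 24252738, mm10), stood at 62407, 74643 and 56242 normalized counts in the P14 libraries and 8466, 7039 and 7294 in the P21 libraries. No P21 library came near the P14 range. It fell 8.45-fold (log2 fold change -3.08 ± 0.13 SE, adjusted p = 5.48e-08, limma). The partner chains Col9a2 (26005, 34954 and 26302 at P14 and 8777, 8178 and 7813 at P21) and Col9a3 (34869.6, 41459.9 and 32328 at P14 and 11793, 11711 and 11049 at P21) fell 3.49-fold and 3.13-fold, with adjusted p of 1.67e-06 and 1.15e-05 (limma). Col2a1, the fibril-forming chain of cartilage (chromosome 15, 97975602 to 98004724), was at 134655, 173958 and 184950.0 normalized counts in the P14 libraries and 39255, 21639 and 34969 in the P21 libraries, and P21 replicate 2 was its lowest. The fall was 5.26-fold (log2 fold change -2.40 ± 0.19 SE, adjusted p = 1.8e-05, limma). Col11a1 and Col11a2, chains of the thin type XI fibrils on which type II collagen assembles, fell 4.98-fold and 2.68-fold (-2.32 ± 0.28 and -1.42 ± 0.20, log2 ± SE). Col9a1, Col9a2, Col9a3 and Col2a1 were called in each of the 30 other fits.

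The fall was part of a longer course for these chains. Col9a1 had a mean of 122489 ± 5309 (SD) at P7 and 1518 ± 253 in adults, and Col2a1 of 222944 ± 23109 and 4769 ± 268. Other cartilage genes were mixed. Of 22 measured members of the cartilage list 8 fell and 0 rose (6.0% and 3.29% of all genes), with a median log2 fold change of -0.49. Beside the 6 collagen chains the falls were Hapln1, which links proteoglycan to hyaluronan (-0.77 ± 0.10), and Matn4, a matrilin that bridges matrix proteins (-1.08 ± 0.23). Acan, the large proteoglycan of cartilage, stood at 3186, 5819 and 3708 at P14 and 6121, 3502 and 5072 at P21, with overlapping ages. Sox9, the transcription factor that activates Col2a1 in cartilage, stood at 1694, 1816 and 1399 at P14 and 1805, 1748 and 1813 at P21, also with overlap (adjusted p = 0.647, limma). Comp, a cartilage oligomeric protein, was low, at 12.4, 7.14 and 25.8 at P14 and 10.3, 19.5 and 5.87 at P21. Hapln1 was not called with the Eif2s3y-low libraries left out (adjusted p = 0.0621, limma), and Matn4 neither there (0.0921) nor with the spread of each age weighted (0.0936).

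Most collagens of fibrous tissue and bone fell. Of 16 interstitial collagens 10 fell and 0 rose, against 6.0% and 3.29% of all genes, the median log2 fold change was -1.02, and 14 of the 16 had all 3 P21 libraries below all P14 libraries (13.2% of all genes). Col3a1, a fibrillar collagen of soft tissue (chromosome 1, 45311538 to 45349706), was at 36424, 41248 and 47794 normalized counts in the P14 libraries and 14486, 9897 and 14525 in the P21 libraries, with P14 replicate 3 highest and P21 replicate 2 lowest. It fell 3.25-fold (log2 fold change -1.70 ± 0.20 SE, adjusted p = 0.00041, limma). Col1a2, a chain of type I collagen, was at 134934, 144747 and 174530.0 at P14 and 61276, 41553 and 50826 at P21. It fell 2.98-fold (log2 fold change -1.57 ± 0.19 SE, adjusted p = 0.000466, limma). Col3a1, Col1a2 and Col15a1 were called in each of the 30 other fits. Its partner Col1a1 was more uneven, at 27192, 25077 and 46663 at P14 and 18207, 6806 and 8573 at P21, so that P14 replicate 3 and P21 replicate 1 were far above their groups. Its fall of 3.11-fold (log2 fold change -1.63 ± 0.42 SE, adjusted p = 0.028, limma) was not called without P14 replicate 3 (adjusted p = 0.127), P21 replicate 2 (0.0697), P21 replicate 3 (0.0766) or the libraries low in Eif2s3y (0.101), nor with the spread of each age weighted (0.167). Col15a1, a collagen that anchors basement membranes to the fibrils below, fell 3.45-fold from 6666 ± 1107 to 1969 ± 543 (SD), and Col5a2, which sets the width of type I fibrils, 3.41-fold from 21922 ± 6476 to 6484 ± 2091. The type VI chain Col6a1 (-0.68 ± 0.21, adjusted p = 0.0587) and the fibril-associated Col14a1 (-0.66 ± 0.20, 0.0584) missed the threshold of limma with no overlap between the ages. Col6a1 passed it without P21 replicate 1 (0.0468) or adult replicate 1 (0.025), and Col14a1 without P21 replicate 1 (0.0473) or P21 replicate 3 (0.0251) or with the length trend removed (0.0176). DESeq2 called both (0.0171 and 0.0254). In the fit of the 6 libraries alone 3 of the 16 were called, with the Eif2s3y-low libraries left out 4, and with the spread of each age weighted 6. Col22a1, a collagen of tissue junctions outside this list, fell from 2494 ± 1140.4 to 499 ± 377 (-2.50 ± 0.50, log2 ± SE), and the call ended with the spread of each age weighted (adjusted p = 0.0501, limma) and with the Eif2s3y-low libraries left out (0.0533).

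Most enzymes and chaperones that make collagen fell as well. Of 29 genes of collagen maturation 20 fell and 0 rose (6.0% and 3.29% of all genes). In 24 of the 29 all P21 libraries were below all P14 libraries (13.2% of all genes). The median log2 fold change of the 29 was -0.64. The 20 were 11 in the fit of the 6 libraries alone, 14 with the spread of each age weighted, 21 without P21 replicate 2 and 22 with the length trend removed. Plod1, a lysyl hydroxylase, was at 7858, 8676 and 8784 normalized counts in the P14 libraries and 4588, 3993 and 4079 in the P21 libraries, a narrow spread at both ages. It fell 2-fold (log2 fold change -1.0 ± 0.08 SE, adjusted p = 1.14e-05, limma). Plod2, the lysyl hydroxylase of the collagen ends, fell 1.95-fold from 5257 ± 357 to 2702 ± 356, while Plod3 was at 2729, 2692 and 2885 at P14 and 2504, 2327 and 2449 at P21 (adjusted p = 0.0937, limma; 0.0451 by DESeq2). P3h1, a prolyl 3-hydroxylase, fell 2.05-fold (-1.04 ± 0.11), and its partner Crtap fell 1.3-fold (-0.38 ± 0.11). The call of Crtap was fragile: its adjusted p ranged from 0.0111 to 0.395 over the alternatives (limma and count models), and leaving out any of 10 single libraries of the 15 ended it, with the highest value without P14 replicate 3 (0.176). It ended as well with the spread of each age weighted (0.226) and with the Eif2s3y-low libraries left out (0.073).

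Genes of folding, export and trimming were among them. Serpinh1, the collagen chaperone HSP47 (chromosome 7, 99345375 to 99353239), was at 25014, 23073 and 28124 normalized counts in the P14 libraries and 15437, 14198 and 11795 in the P21 libraries. It fell 1.84-fold (log2 fold change -0.88 ± 0.11 SE, adjusted p = 0.000465, limma). Fkbp10, a peptidyl-prolyl isomerase that works with it, fell 1.92-fold (-0.94 ± 0.10). Kdelr3, a receptor that returns chaperones to the endoplasmic reticulum, fell 1.85-fold and Creb3l1, the membrane-bound transcription factor that drives collagen secretion in bone, 1.83-fold. Sec24d, a coat protein of the vesicles that carry procollagen, fell 1.56-fold. Of the proteinases that remove the procollagen ends, Bmp1 fell 2.18-fold (-1.12 ± 0.13) and Adamts2 2.37-fold (-1.24 ± 0.15), and Pcolce2, an enhancer of Bmp1, fell 2.46-fold from 3169 ± 80.8 to 1306 ± 262. The more abundant enhancer Pcolce was at 4269.8, 4304 and 4879 at P14 and 4238, 3679 and 3373 at P21 and was not called. Among lysyl oxidases, Loxl2 stood at 2604, 1771 and 3638 at P14 and 849.6, 355 and 508 at P21. It fell 4.78-fold (log2 fold change -2.26 ± 0.32 SE, adjusted p = 0.00121, limma), and Loxl1 fell 2.11-fold (-1.08 ± 0.09). Lox itself stood at 12984, 12733 and 9187 at P14 and 9504, 13339 and 10881 at P21, with the ages overlapping (adjusted p = 0.894, limma). Ppib, a general isomerase of the endoplasmic reticulum, overlapped too, at 10907, 9345 and 9649.8 at P14 and 8025, 10148 and 7362 at P21. It gained a call without P21 replicate 2 (adjusted p = 0.0101, limma), with the length trend removed (0.000292) and with the Eif2s3y-low libraries left out (0.0453).

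Most genes of basement membranes, the sheets under endothelium and around Schwann cells, fell. Of 18 genes 11 fell and 0 rose (6.0% and 3.29% of all genes), and the median log2 fold change was -0.99. The 11 that fell were the 11 without overlap between the ages (13.2% of all genes had all P21 libraries lower). Col4a1 and Col4a2, the chains of the common type IV collagen network, lie head to head (chromosome 8, 11198423 to 11312826, and chromosome 8, 11312805 to 11449287). Col4a1 was at 12638, 15171 and 17544 normalized counts in the P14 libraries and 7405, 4483 and 7993 in the P21 libraries. It fell 2.33-fold and Col4a2 2.52-fold (-1.22 ± 0.20 and -1.33 ± 0.20, log2 ± SE). Their annotated spans overlap at the shared start and the use of strand in counting was not stated, so reads in that stretch could count for either. Lamc1, the laminin chain common to most laminins, was at 30757, 36479 and 37743 at P14 and 17154, 10456 and 19072 at P21. It fell 2.31-fold (log2 fold change -1.21 ± 0.19 SE, adjusted p = 0.00258, limma). Nid1, which ties laminin to type IV collagen, fell 2.25-fold (-1.17 ± 0.13), and Lama4, the endothelial laminin chain, 2.13-fold (-1.09 ± 0.19). Lama2, the laminin chain around Schwann cells, stood at 12588, 16325 and 17117 at P14 and 8593, 4507 and 11241 at P21. Its fall of 2.01-fold was not called without P14 replicate 2 (adjusted p = 0.103, limma), P14 replicate 3 (0.138), P21 replicate 2 (0.0669), P7 replicate 4 (0.0543), P7 replicate 5 (0.0507), adult replicate 2 (0.0512), adult replicate 3 (0.0517), with the Eif2s3y-low libraries left out (0.233) or with a term for them (0.0683), or with the spread of each age weighted (0.113). Lama5 stood at 1969, 2952 and 2399.6 at P14 and 2702, 1467 and 4046 at P21 and Hspg2, the proteoglycan perlecan, at 7754, 11954 and 14049.7 at P14 and 7468, 2451 and 9503 at P21, each with P21 replicate 2 the lowest of the 6. Of the 18 transcripts 16 are in the longest of 5 equal groups of genes by length, where P21 replicate 2 was low; with the length trend removed 14 fell and 0 rose, and without P21 replicate 2 it was 10. The fit of the 6 libraries alone called 1 of the 18.

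Elastic fibres and small proteoglycans divided. Of 26 genes 13 fell and 1 rose (6.0% and 3.29% of all genes), with a median log2 fold change of -0.61. Without overlap there were 15 with P21 below and 3 with P21 above (13.2% and 11.2% of all genes). Mfap2, a microfibril protein, was at 983, 874 and 1616 at P14 and 347, 401 and 324 at P21. It fell 3.13-fold (log2 fold change -1.65 ± 0.18 SE, adjusted p = 0.000169, limma). Eln, elastin, stood at 4725, 18715 and 12171 at P14 and 1730.0, 1398 and 3554 at P21, a spread of several-fold within P14. It fell 5-fold (log2 fold change -2.32 ± 0.42 SE, adjusted p = 0.00537, limma), and Fbn2, the fibrillin of growing tissue, fell 3.02-fold (-1.60 ± 0.27). Sparc, a collagen-binding glycoprotein, was at 288713, 332563 and 236317 at P14 and 163835, 171867 and 139267 at P21. It fell 1.8-fold (-0.84 ± 0.13). The leucine-rich proteoglycans Lum and Dcn, which space collagen fibrils, fell 1.65-fold and 1.33-fold. Prelp, a proteoglycan of the same family that binds basement membranes to collagen (chromosome 1, 133910304 to 133921401), went the other way. It stood at 1974, 2355 and 2051 normalized counts in the P14 libraries and 4116, 3827 and 4253 in the P21 libraries. All P21 values were above all P14 values, and the rise was 1.92-fold (log2 fold change 0.94 ± 0.12 SE, adjusted p = 0.000584, limma). Ogn, another member of the family, was at 17246, 16123 and 15519.9 at P14 and 14973, 15361 and 14192 at P21 and was not called. With the spread of each age weighted 7 of the 13 falls were called, and in the fit of the 6 libraries alone 1.

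Matrix-degrading enzymes fell in part. Of 18 proteases and inhibitors 5 fell and 0 rose (6.0% and 3.29% of all genes). Mmp2, gelatinase A, was at 14356, 15118 and 14997 normalized counts in the P14 libraries and 7931, 7687 and 8524 in the P21 libraries, with all libraries close to their age mean. It fell 1.84-fold (log2 fold change -0.88 ± 0.07 SE, adjusted p = 1.14e-05, limma), and its activator Mmp14 fell 1.7-fold (-0.77 ± 0.12). The inhibitor Timp1 fell 2.57-fold, from 557 ± 93.8 to 230.1 ± 109, and Timp3 was at 28327, 32558 and 31158 at P14 and 26693, 21226 and 26187 at P21 (adjusted p = 0.0692, limma; 0.0254 by DESeq2). The 5 falls were 3 with the Eif2s3y-low libraries left out and 2 in the fit of the 6 libraries alone. Adamts17, a secreted metalloproteinase, was among the 10 largest falls of genes above 10 CPM. It was at 1046, 1194 and 1383 normalized counts in the P14 libraries and 246, 124 and 265 in the P21 libraries. The fall was 5.94-fold (log2 fold change -2.57 ± 0.25 SE, adjusted p = 8.94e-05, limma), and it was called in each of the 30 other fits.

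**Figure D2:**
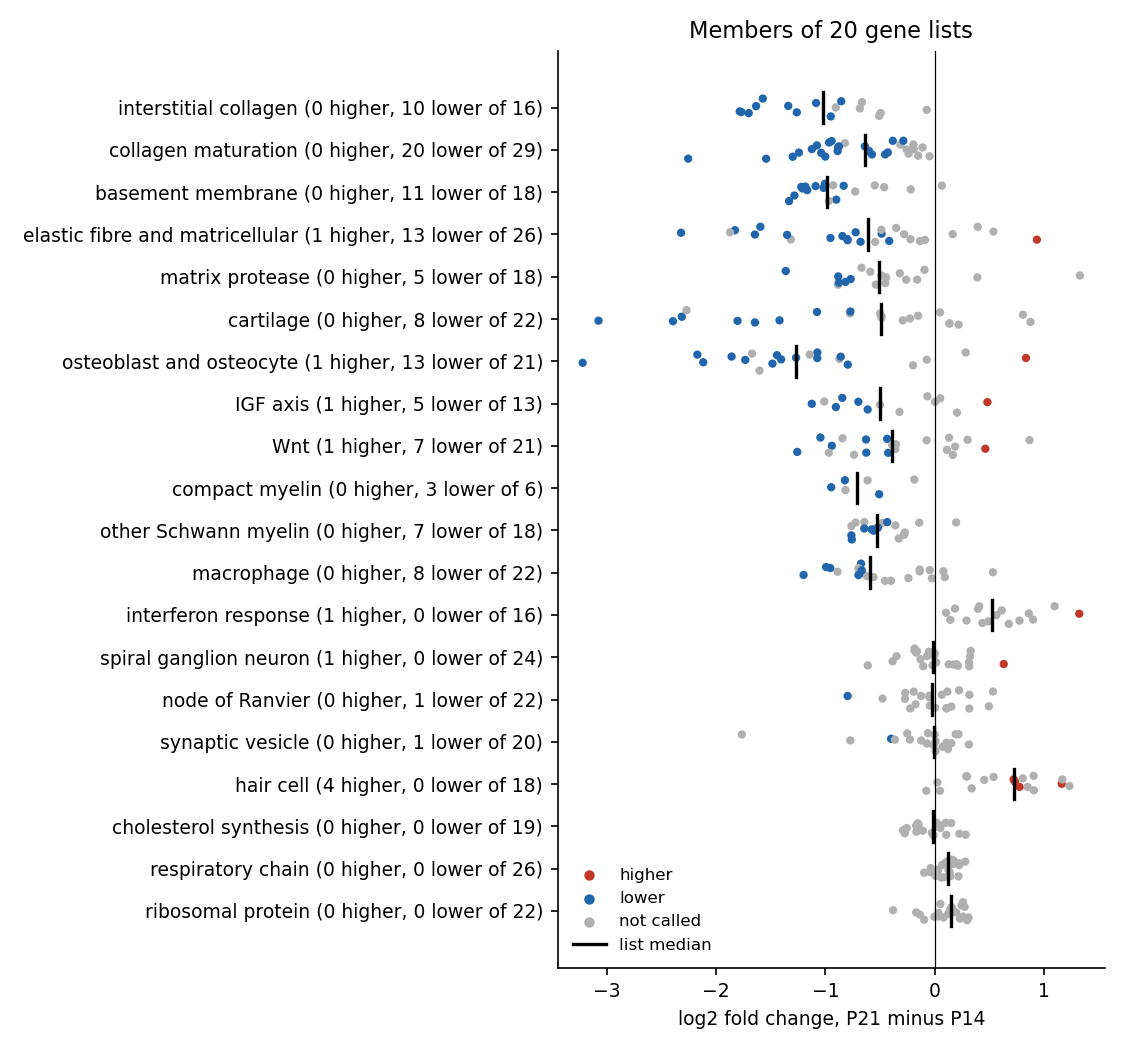
Log2 fold change, P21 minus P14, of every tested member of 20 gene lists, 1 point per gene (red rose, blue fell, grey not called; vertical position within a row is random), with the list median as a black bar. Nearly all members of the collagen maturation list (20 of 29 fell) and the interstitial collagen list (10 of 16 fell) lie left of 0, and the neuron, node and cholesterol lists lie around it. Of all genes tested 6.0% fell and 3.29% rose.

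Most transcripts of bone-forming cells fell, and 1 rose. Of 21 osteoblast and osteocyte genes 13 fell and 1 rose (6.0% and 3.29% of all genes). The median log2 fold change of the 21 was -1.27. Ibsp, bone sialoprotein, which nucleates mineral (chromosome 5, 104299287 to 104311472), stood at 52955, 33679 and 63644 normalized counts in the P14 libraries and 11036, 3191 and 3951 in the P21 libraries. P21 replicate 1 was above the other P21 libraries and still below every P14 library. The fall was 9.34-fold (log2 fold change -3.22 ± 0.38 SE, adjusted p = 0.00041, limma). P21 replicate 1 was likewise the highest of its age for Sp7, the transcription factor osterix (3325, 2629 and 4371 at P14 and 1949.9, 1011 and 883 at P21), and for Phex, an endopeptidase of osteocytes (14920.5, 11938 and 18918 at P14 and 7552, 3555 and 3409.7 at P21). They fell 2.8-fold and 3.33-fold. Smpd3, a sphingomyelinase needed for mineralisation, fell 4.34-fold (-2.12 ± 0.27). Ifitm5, a membrane protein of osteoblasts, fell 4.51-fold (-2.17 ± 0.31), and Phospho1, a phosphatase of matrix vesicles, 2.11-fold (-1.07 ± 0.16). Runx2, the master regulator of osteoblasts, stood at 1572, 1165 and 1749 at P14 and 1074, 606 and 527 at P21. Its fall of 2.1-fold (adjusted p = 0.0211, limma) was not called without P14 replicate 1 (0.0544), P14 replicate 3 (0.0961) or P21 replicate 3 (0.0719), or with the spread of each age weighted (0.0998). The 13 falls were 8 without P14 replicate 3, 8 with the spread of each age weighted and 3 in the fit of the 6 libraries alone.

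Bglap and Sost, known in mature bone, were not called. Bglap, osteocalcin, stood at 10329, 6180.3 and 14057 at P14 and 7394, 2713 and 1382 at P21, with overlap, and passed the threshold without P21 replicate 1 (log2 fold change -2.32, adjusted p = 0.0271, limma). Sost, the Wnt inhibitor of osteocytes, stood at 1361, 1004 and 1546 at P14 and 2059, 832 and 818 at P21. Bglap and Bglap2 are near-identical copies and can share reads. Another pair of large falls came from genes known in bone cells: Panx3, a pannexin channel of osteoblasts and cartilage, and Slc13a5, a citrate transporter. Panx3 was at 3054, 1961 and 3826 at P14 and 726, 271 and 316 at P21. It fell 7.15-fold (log2 fold change -2.84 ± 0.36 SE, adjusted p = 0.000584, limma) and was called in each of the 30 other fits. Slc13a5 was at 577, 311 and 749 at P14 and 115, 36 and 50.9 at P21, a fall of 8.47-fold (log2 fold change -3.08 ± 0.41 SE, adjusted p = 0.000872, limma). Of 14 osteoclast genes 1 fell (6.0% of all genes). It was Ctsk, cathepsin K, at 3924, 3952 and 3269 at P14 and 1319, 1552 and 1111 at P21 (log2 fold change -1.49 ± 0.21 SE, adjusted p = 0.00103, limma). Acp5 (276, 44.9 and 539 at P14 and 166, 181 and 63.6 at P21) and Mmp9 (174, 31.6 and 351 at P14 and 225, 166 and 119 at P21), other osteoclast enzymes, varied over several-fold within P14 and were not called.

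Spp1, osteopontin, is the member that rose. It belongs with Ibsp, Dmp1 and Mepe to a cluster of acidic matrix protein genes on chromosome 5, and is also made by cells outside bone. Spp1 (chromosome 5, 104435111 to 104441053) stood at 115173, 108006 and 77947 normalized counts in the P14 libraries and 176126, 189855 and 165491 in the P21 libraries, with P14 replicate 3 the lowest of the 6 libraries. The rise was 1.79-fold (log2 fold change 0.84 ± 0.16 SE, adjusted p = 0.00742, limma), and the call ended with the spread of each age weighted (adjusted p = 0.101) and with the Eif2s3y-low libraries left out (0.0946). Dmp1 was at 11514, 10980.0 and 14241 at P14 and 7911, 2460.2 and 4599 at P21, a fall of 2.72-fold (adjusted p = 0.0226, limma) that was not called without P14 replicate 3 (0.0942), P21 replicate 3 (0.0511) or the libraries low in Eif2s3y (0.0796), or with the spread of each age weighted (0.0889). Mepe was at 1814, 1756 and 1775 at P14 and 1512, 778 and 784 at P21 (adjusted p = 0.126, limma; 0.0467 without P21 replicate 1). The promoters of Ibsp and Spp1 are shown because these neighbours went opposite ways. Both are the 250 bases before the start in RefSeq (build GRCm38.p6, plus strand), for Ibsp chr5:104299037-104299286 and for Spp1 chr5:104434861-104435110, the first of 2 starts that RefSeq lists for Spp1. Capitals mark TATAAA and CCAAT on either strand (TTTATA and ATTGG on the other).
Ibsp: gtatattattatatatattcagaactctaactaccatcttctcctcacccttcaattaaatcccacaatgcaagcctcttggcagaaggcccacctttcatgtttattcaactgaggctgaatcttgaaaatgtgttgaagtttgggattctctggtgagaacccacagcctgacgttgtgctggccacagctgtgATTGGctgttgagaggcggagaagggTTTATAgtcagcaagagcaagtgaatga
Spp1: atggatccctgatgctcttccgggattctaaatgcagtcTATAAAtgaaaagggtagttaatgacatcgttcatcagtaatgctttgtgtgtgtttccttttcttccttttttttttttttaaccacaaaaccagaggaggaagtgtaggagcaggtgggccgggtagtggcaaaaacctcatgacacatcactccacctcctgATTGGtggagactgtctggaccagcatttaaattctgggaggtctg
In the window of Ibsp the TATA-like match begins 28 bases before the start and the CCAAT match 54 bases before it. In that of Spp1 they begin 211 and 46 bases before it. TATAAA was found for 33.3% of the bone list genes with a promoter in RefSeq's table (5 of 15) and for 8.58% of the 12872 tested genes with one. CCAAT was found for 60% and 39.5%. These shares are of genes, and a gene with several starts counted when any of them held the motif. A match describes letters, not a bound site. Of the interstitial collagens 12, of the collagen maturation genes 19 and of the basement membrane genes 13 had a promoter in the table. Among these lists TATAAA was in 8.33%, 10.5% and 0%, and CCAAT in 25%, 26.3% and 38.5%. The other motifs searched, both strands, were TGACGT (10.4% of all promoters; 21.1% of collagen maturation, 8.33%, 7.69% and 13.3% of the interstitial collagen, basement membrane and bone lists), ACAATG (8.03%; 20% of the bone list, 0% of the other 3) and TCACCCCAC (0.629%; 5.26% of collagen maturation, 0% of the other 3).

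Genes of growth signalling were lower in part. Igf1, insulin-like growth factor 1 (chromosome 10, 87858265 to 87937047), was at 4805, 5111 and 6759 normalized counts in the P14 libraries and 2725, 2328 and 2522 in the P21 libraries. It fell 2.18-fold (log2 fold change -1.12 ± 0.13 SE, adjusted p = 0.000436, limma). Of the binding proteins that hold it in the tissue, Igfbp3 fell 1.8-fold (-0.85 ± 0.13) and Igfbp4 1.87-fold (-0.90 ± 0.12), and Igfbp6, which prefers Igf2, rose 1.4-fold (0.48 ± 0.12). The rise of Igfbp6 was not called without P14 replicate 2 (adjusted p = 0.0595, limma), P14 replicate 3 (0.108) or P21 replicate 2 (0.0535), with the length trend removed (0.105), with the spread of each age weighted (0.215), or with the Eif2s3y-low libraries left out (0.242) or with a term for them (0.0516). Of 13 genes of the axis 5 fell (3 without P14 replicate 3, 2 in the fit of the 6 libraries alone) and 1 rose. Of all genes 6.0% fell and 3.29% rose. The receptors Igf1r and Insr were not called. H19, an imprinted noncoding RNA beside Igf2 (chromosome 7, 142575530 to 142578146), was at 7047, 5293 and 8060.4 normalized counts in the P14 libraries and 2310.2, 1803 and 2014 in the P21 libraries, with no overlap. It fell 3.3-fold (log2 fold change -1.72 ± 0.15 SE, adjusted p = 4.68e-05, limma), the tail of a course from 165730.0 ± 19916 (SD) at P3 to 625 ± 88.6 in adults. Grb10, an imprinted inhibitor of insulin and Igf1 receptors, fell 2.03-fold (-1.02 ± 0.16). Igf2, the fetal growth factor, was at 26784, 29034 and 40049 at P14 and 19125, 21951 and 17389 at P21 and fell 1.62-fold (adjusted p = 0.0466, limma), a call that ended in 17 of the 30 other fits, among them those without P14 replicate 2 (0.0788), P14 replicate 3 (0.195), P21 replicate 1 (0.0859) or P21 replicate 3 (0.117). Of 17 imprinted and early growth genes 3 fell, 1 of them in the fit of the 6 libraries alone, and 0 rose.

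Thyroid hormone and Wnt genes changed in part. Thyroid hormone is needed for the cochlea to start hearing, and Dio2 is the enzyme that makes its active form in the tissue. Dio2 (chromosome 12, 90724552 to 90739037) was at 6473, 6642 and 9486 normalized counts in the P14 libraries and 4158, 1700.4 and 2925 in the P21 libraries. It fell 2.7-fold (log2 fold change -1.43 ± 0.26 SE, adjusted p = 0.00562, limma), from a mean of 24052 ± 634 at P7 and towards 655 ± 127 in adults. Hr, a corepressor induced by the hormone, was at 3164, 3584 and 3993 at P14 and 1669, 1239.8 and 1493 at P21. It fell 2.45-fold (log2 fold change -1.29 ± 0.18 SE, adjusted p = 0.000961, limma). Of 12 genes of this list 4 fell and 0 rose (6.0% and 3.29% of all genes). The other called members, the receptor Thrb (-0.34 ± 0.10, adjusted p 0.0135 to 0.408 over the alternatives) and the target Klf9 (-0.54 ± 0.16, 0.0132 to 0.289), lost their call in 19 and 15 of the 30 other fits, among them those without P14 replicate 2 (0.114 and 0.129), P14 replicate 3 (0.142 and 0.173) or P21 replicate 2 (0.0921 and 0.111) and that with the spread of each age weighted (0.192 for both). The fit of the 6 libraries alone called 1 of the 12. Of 21 Wnt genes 7 fell and 1 rose (6.0% and 3.29% of all genes). The fall of Sfrp5, a secreted inhibitor, was the largest of the called members (2757, 2665 and 2273 at P14 and 1056, 986 and 1171 at P21; log2 fold change -1.26 ± 0.23 SE, adjusted p = 0.00532, limma). It was not called with the spread of each age weighted (0.0861) or with the Eif2s3y-low libraries left out (0.146). Wnt5a, a ligand, fell 1.34-fold (-0.42 ± 0.09) and Dkk3, a secreted protein of the Dickkopf family, rose 1.38-fold, at 6412, 6886 and 6715 at P14 and 10335, 8115 and 9304 at P21 (log2 fold change 0.47 ± 0.08 SE, adjusted p = 0.0035, limma). The 7 falls were 3 without P14 replicate 3, 4 without P21 replicate 3, 3 with the Eif2s3y-low libraries left out and 1 with the spread of each age weighted or in the fit of the 6 libraries alone.

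Among genes with a mean of at least 10 CPM in the higher age, no overlap and a named symbol, the 3 steepest falls were Oc90, Umodl1 and Tmprss9. All 3 are in the list of tectorial and otolithic genes, which, like every other list here, was drawn up with earlier results of these data known. That they share it is therefore no result. Of its 10 genes 3 fell and 0 rose (6.0% and 3.29% of all genes). All P21 libraries were below all P14 libraries in 5 of the 10 and above them in 1 (13.2% and 11.2% of all genes). Oc90, an otoconial matrix protein made early in the inner ear (chromosome 15, 65876053 to 65912287), stood at 839, 617 and 478 normalized counts in the P14 libraries and 37.4, 30.8 and 47.9 in the P21 libraries. It fell 16.1-fold (log2 fold change -4.01 ± 0.25 SE, adjusted p = 2.78e-06, limma), after means of 20726 ± 4563 at P3 and 16015 ± 4353 at P7, and the adult mean was 2.58 ± 0.485, at or under the floor of 3 reads. Tmprss9, a transmembrane serine protease, was at 2484, 1814 and 1927 at P14 and 137, 189 and 233 at P21. It fell 11.2-fold (log2 fold change -3.49 ± 0.27 SE, adjusted p = 1.32e-05, limma). Umodl1, a secreted protein of the uromodulin family, was at 808, 605 and 759 at P14 and 16.8, 63.7 and 109 at P21, with a spread of several-fold within P21. Its fall of 14.3-fold (log2 fold change -3.84 ± 0.69 SE, adjusted p = 0.00513, limma) was not called with the Eif2s3y-low libraries left out (0.0853), and without P21 replicate 1 its log2 fold change was -3.09. Sapcd2, a regulator of spindle orientation, was at 505, 444 and 329 at P14 and 55.2, 89.4 and 59.7 at P21. It fell 6.22-fold (log2 fold change -2.64 ± 0.25 SE, adjusted p = 7.36e-05, limma). Oc90, Tmprss9 and Sapcd2 were called in each of the 30 other fits. The main genes of the tectorial membrane, the sheet over the hair cells, were not called. Tectb, beta-tectorin, stood at 2431, 2320.3 and 1852 at P14 and 1649.6, 1580.1 and 1037 at P21, with no overlap (adjusted p = 0.112, limma). It gained a call with a term for the Eif2s3y-low libraries (0.0193, limma). Tecta overlapped, at 143, 66.3 and 114 at P14 and 631, 171 and 101 at P21. Ceacam16 overlapped too, at 63955, 59747 and 35337 at P14 and 44806, 56191 and 56049 at P21. Ceacam16 is the late component of that membrane, and its mean had been 87.5 ± 27.6 at P7.

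**Figure D3:**
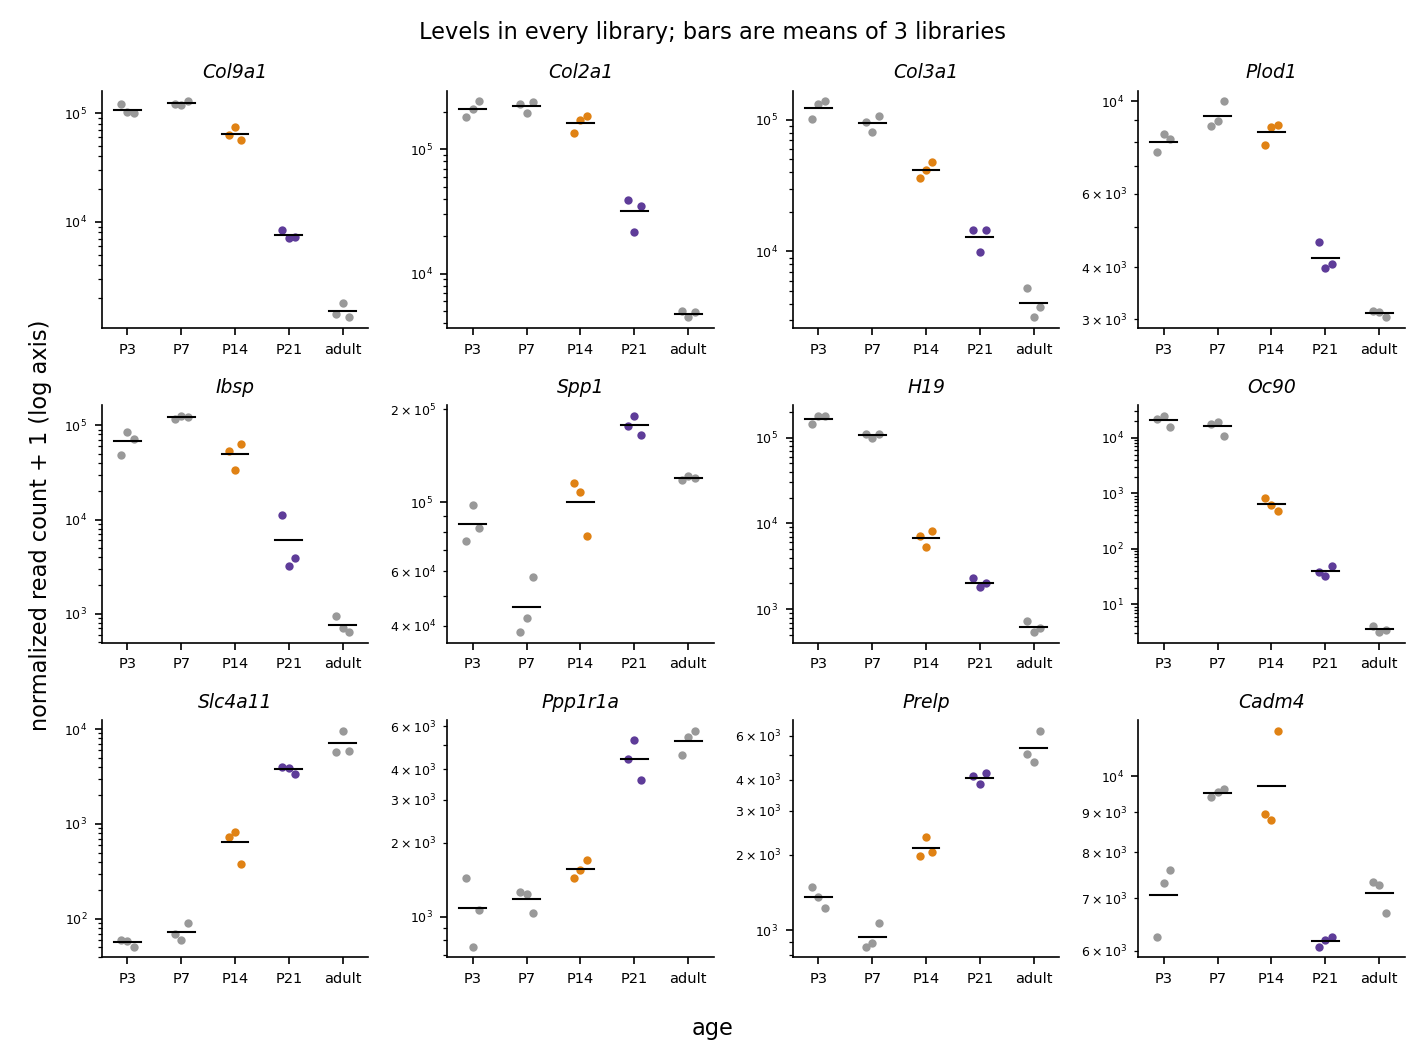
Normalized read count plus 1 (log axis) of 12 genes in each of the 15 libraries by age, 1 point per library with a bar at the mean of 3 (orange P14, purple P21, grey other ages). Col9a1, Ibsp, H19 and Oc90 fall from P14 to P21 and on to the adult, and Slc4a11 and Prelp rise.

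Fewer genes rose, and by the same limits the steepest was a transporter. Slc4a11, a membrane transporter of the bicarbonate transporter family found in fibrocytes of the lateral wall (chromosome 2, 130684108 to 130697519), stood at 727, 825 and 379 normalized counts in the P14 libraries and 3973, 3912 and 3392 in the P21 libraries, with P14 replicate 3 the lowest. It rose 6.14-fold (log2 fold change 2.62 ± 0.27 SE, adjusted p = 0.000128, limma) and was called in each of the 30 other fits. It had been near 71.7 ± 15.9 at P7 and reached 7072 ± 2187 in adults. Of 14 fibrocyte genes in the list it was the only called member (3.29% of all genes rose). Coch, cochlin, the abundant fibrocyte protein, was at 466750.0, 559858 and 255773 at P14 and 699393, 849847 and 567701 at P21. Its P21 libraries were all above its P14 libraries, and it missed the threshold (log2 fold change 0.78 ± 0.25 SE, adjusted p = 0.0727, limma), and passed it without P14 replicate 2 (0.0391) and by DESeq2 (0.0284). Emilin2, a glycoprotein of the elastic fibre family, went the other way, at 21976, 25008 and 15532 at P14 and 7508, 12428 and 13036 at P21, with no overlap. It missed the threshold as well (log2 fold change -0.94 ± 0.28 SE, adjusted p = 0.0506, limma) and passed it in 7 of the 30 other fits, among them edgeR (0.0481), DESeq2 (0.00782) and those without P7 replicate 5 (0.0272) or P21 replicate 2 (0.0479). Of the 14 genes 3 had all P21 libraries above all P14 libraries and 4 had them below (11.2% and 13.2% of all genes). Otos, otospiralin, overlapped, at 168082, 166032 and 91758 at P14 and 159620.0, 188007 and 139120.0 at P21.

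Inmt, a methyltransferase of indoles and other amines, stood at 1608, 1617 and 1085 normalized counts in the P14 libraries and 3938, 5737 and 3367 in the P21 libraries. It rose 3-fold (log2 fold change 1.58 ± 0.23 SE, adjusted p = 0.00131, limma). Ppp1r1a, an inhibitor of protein phosphatase 1 controlled by cyclic AMP, was at 1441, 1546 and 1701 at P14 and 4411, 5241 and 3609 at P21. It rose 2.8-fold (log2 fold change 1.49 ± 0.20 SE, adjusted p = 0.000778, limma). Both were not called with the Eif2s3y-low libraries left out (0.0566 and 0.0657), which leaves P21 with replicate 3 alone. Apod, apolipoprotein D, a lipid carrier of glia and fibroblasts, was the most abundant gene that rose and is named here after its values were seen. It stood at 208668, 226576 and 127179 at P14 and 380629, 431776 and 313102 at P21, with P14 replicate 3 the lowest. The rise was 2.05-fold (log2 fold change 1.03 ± 0.19 SE, adjusted p = 0.00602, limma), and it was not called with the Eif2s3y-low libraries left out (0.118).

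The other 7 of the 10 largest rises by these limits varied with single libraries. In Cndp1, Plbd1, Vmo1, Crhbp and Slc26a4 the P14 replicate 3 value was the lowest of the 6, for example Crhbp, the binding protein of corticotropin-releasing hormone, at 6318, 6736 and 2917 at P14 and 10796, 13883 and 20113 at P21, and Slc26a4, the anion exchanger pendrin, at 1777, 1664 and 746 at P14 and 3477, 4195 and 3429 at P21. Without P14 replicate 3 none of these 5 was called (adjusted p between 0.124 and 0.194, limma), nor without P21 replicate 3 (0.0789 to 0.108). Without P21 replicate 2 the calls of Plbd1 (0.0744), Vmo1 (0.0999) and Slc26a4 (0.086) ended, and Slc26a4 was not called by edgeR (0.0555). Prg4, lubricin, was at 326, 329 and 538 at P14 and 1275, 1357 and 997 at P21, and Ttr, a thyroxine carrier of the choroid plexus, at 237, 246 and 460.4 at P14 and 716, 1453 and 807 at P21. They lost their calls without P14 replicate 1 (0.0533 and 0.0596) or P14 replicate 2 (0.0648 and 0.0705), and Ttr also without P21 replicate 2 (0.0522). None of the 7 was called with the spread of each age weighted (0.14 to 0.254), and only Plbd1 with the Eif2s3y-low libraries left out (0.0862 to 0.287 for the other 6). Of 15 choroid plexus and meningeal genes 1 rose, Ttr, and 1 fell, Igf2 (3.29% and 6.0% of all genes).

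Some hair cell transcripts rose. Of 18 genes 4 rose and 0 fell (3.29% and 6.0% of all genes). In 12 of the 18 all P21 libraries were above all P14 libraries, where 11.2% of all genes did so. The median log2 fold change was 0.73. Myo7a, an unconventional myosin of the hair bundle, stood at 363, 329 and 319.8 normalized counts in the P14 libraries and 891, 607 and 799 in the P21 libraries. It rose 2.24-fold (log2 fold change 1.16 ± 0.24 SE, adjusted p = 0.00979, limma). Cib2 and Lhfpl5, parts of the mechanotransduction complex, were at 949, 917 and 728 at P14 and 1232, 1631 and 1424 at P21 and at 648, 555 and 533 at P14 and 831, 1155 and 928 at P21. They rose 1.65-fold and 1.67-fold (adjusted p = 0.00307 and 0.00458, limma). Espn, an actin bundler of stereocilia, rose 1.72-fold (0.78 ± 0.20). Otof, which drives release at the inner hair cell synapse, stood at 1605, 1966 and 1485 at P14 and 3772, 2373 and 3462 at P21 and missed the threshold (adjusted p = 0.0517, limma). The outer hair cell genes Slc26a5, prestin (400.1, 531 and 327 at P14 and 290.1, 345 and 732 at P21), and Ocm, oncomodulin (3836, 2999 and 1914 at P14 and 1148, 5469 and 2995 at P21), overlapped, and Ocm ranged over several-fold at P21. The summed level of the 18 genes was 19515 to 23305 at P14 and 26636 to 29291 at P21, and whether more sensory epithelium entered the P21 dissections was not tested. With the spread of each age weighted Cib2 and Lhfpl5 were called, Myo7a (0.101) and Espn (0.214) were not, and the fit of the 6 libraries alone called 1 of the 18. Espn was not called without P14 replicate 2 (0.0769), P14 replicate 3 (0.115) or P21 replicate 1 (0.0773), or with the Eif2s3y-low libraries left out (0.127), either (limma). Without adult replicate 3 the list had 7 calls, as with DESeq2, without P21 replicate 2 it had 6, and Otof was called in both of these fits that left out a library (0.0166 and 0.0265, limma). Among 13 genes of the stria vascularis, in the lateral wall, 12 had a positive log2 fold change, with a median of 1.03. In 4 of the 13 all P21 libraries were above all P14 libraries, and 1 rose, Slc26a4. The 14 fibrocyte genes had a median of 0.02.

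Some transcripts of peripheral myelin fell, in calls that ended in several alternatives. Of 6 genes of compact myelin 3 fell and 0 rose (6.0% and 3.29% of all genes). Pmp22, a membrane protein of peripheral myelin (chromosome 11, 63128982 to 63159547), stood at 270417, 232622 and 221744 normalized counts in the P14 libraries and 128064, 123740.0 and 159571 in the P21 libraries, with all P21 libraries below all P14 libraries. It fell 1.77-fold (log2 fold change -0.82 ± 0.15 SE, adjusted p = 0.00534, limma). Mal, a lipid raft protein of myelin, fell 1.42-fold (-0.51 ± 0.14). Mbp, which oligodendrocytes make as well, overlapped, at 215895, 271007 and 565350.0 at P14 and 168368, 328473 and 167207 at P21, with P14 replicate 3 far above the rest, as in the oligodendrocyte sum. Of 18 other genes of myelinating Schwann cells 7 fell and 0 rose. In 13 of the 18 all P21 libraries were below all P14 libraries (13.2% of all genes). Cadm4, the adhesion molecule of the internode, was at 8938, 8786 and 11414 at P14 and 6074, 6194 and 6246 at P21. It fell 1.56-fold (log2 fold change -0.64 ± 0.10 SE, adjusted p = 0.00172, limma). Pllp, plasmolipin, fell 1.49-fold, Ncmap, a myelin-associated membrane protein, 1.69-fold, and Fa2h, the fatty acid 2-hydroxylase of myelin lipids, 1.7-fold.

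These myelin calls were not stable. With the spread of each age weighted 0 of the 6 and 1 of the 18 (Cadm4) were called. Without P14 replicate 3 it was 1 of 6 and 1 of 18, without P14 replicate 2, 2 of the 18, without P21 replicate 1, 4 of the 18, with the Eif2s3y-low libraries left out 0 of 6 and 1 of 18, with a term for them 4 of the 18, and in the fit of the 6 libraries alone 1 of 6 and 1 of 18. With quantile normalization 0 of the 6 were called. The adjusted p of Pmp22 (limma) was 0.0586 with the spread of each age weighted, 0.0544 with quantile normalization and 0.203 with the Eif2s3y-low libraries left out. Mal, Pllp, Ncmap and Fa2h were not called without P14 replicate 3 (0.168, 0.0697, 0.056 and 0.0781, limma), with the spread of each age weighted (0.229, 0.157, 0.197 and 0.134) or with the Eif2s3y-low libraries left out (0.163, 0.171, 0.402 and 0.0865). The calls of Mal and Ncmap ended in 15 and 10 of the 30 other fits. Of 15 regulators of Schwann cells 1 rose and 2 fell (3.29% and 6.0% of all genes), with a median of -0.17. Nab2, a partner of Egr2, fell 1.34-fold (-0.43 ± 0.10), and Zeb2, a repressor needed for Schwann cells to differentiate, 1.53-fold (-0.61 ± 0.15). Neither was called without P14 replicate 3 (0.0767 and 0.101, limma), with the Eif2s3y-low libraries left out (0.122 and 0.0819) or with the spread of each age weighted (0.132 and 0.12). Srebf1, a regulator of lipid synthesis, rose 1.32-fold (0.40 ± 0.11), a call that ended in 13 of the 30 other fits, among them those without P14 replicate 1 (0.0828), P14 replicate 3 (0.143), P21 replicate 1 (0.0912) or P21 replicate 3 (0.108). Egr2 (4276, 4694 and 4225 at P14 and 4233, 3754 and 4989 at P21) and Sox10 (6446, 7084 and 6798 at P14 and 5649.5, 5636 and 6270.5 at P21), which switch myelin genes on, were not called. Cholesterol synthesis, which supplies myelin lipid, had 0 of 19 genes called by limma in either direction and a median of -0.01 (5 had an unadjusted p under 0.05, edgeR called 0 and DESeq2 1). Of 12 genes of immature and Remak Schwann cells 2 fell, Id2, an inhibitor of myelin genes (-0.56 ± 0.09), and Sox4, a transcription factor of immature cells (-1.20 ± 0.28), the latter not called without P14 replicate 3 (0.0929, limma), with the Eif2s3y-low libraries left out (0.0673) or with the spread of each age weighted (0.0548).

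Few neuronal transcripts were called. Of 24 neuron genes 1 rose and 0 fell, against 3.29% and 6.0% of all genes, with a median log2 fold change of -0.01. Slc17a7, the vesicular glutamate transporter of the nerve, stood at 16303, 18402 and 16699 normalized counts in the P14 libraries and 16746, 16413 and 17996 in the P21 libraries, with overlapping ages (log2 fold change -0.01 ± 0.13 SE, adjusted p = 0.983, limma). Nefh, the heavy neurofilament, stood at 81139.5, 88684 and 80962 at P14 and 80404, 64727 and 100658 at P21 and Pvalb, parvalbumin, at 28347, 22895 and 22119.7 at P14 and 22001, 31779.6 and 26876 at P21. Ntrk2, the receptor of the neurotrophin BDNF, overlapped too (0.02 ± 0.19). The member that rose was Calb2, calretinin, a calcium buffer and marker of a type I neuron subtype, at 97261, 98386 and 65809 at P14 and 124855, 140300.0 and 134324 at P21. It rose 1.55-fold (log2 fold change 0.63 ± 0.17 SE, adjusted p = 0.0309, limma), and P14 replicate 3 was the lowest of the 6. The adjusted p was 0.13 when that library was left out, 0.0581 or 0.068 when P21 replicate 2 or 3 was, with quantile normalization 0.175, with the length trend removed 0.0525, with the spread of each age weighted 0.191, and with the Eif2s3y-low libraries left out or given a term 0.132 or 0.0601. Rxrg, a retinoid receptor listed with the subtypes, rose 1.68-fold (588, 639 and 502 at P14 and 859.9, 1079 and 964 at P21; log2 fold change 0.75 ± 0.14 SE, adjusted p = 0.00651, limma), and was not called with the spread of each age weighted (0.0657) or with the Eif2s3y-low libraries left out (0.0796).

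Nodes of Ranvier, where sodium channels renew the impulse, had 1 of 22 genes called. Of all genes 6.0% fell and 3.29% rose, the background for every list of this paragraph. Scn2b, a sodium channel subunit, was at 1249.9, 1289.7 and 1373 at P14 and 798, 717 and 738 at P21. It fell 1.74-fold (log2 fold change -0.80 ± 0.18 SE, adjusted p = 0.0166, limma), and was not called without P14 replicate 3 (0.0685), with the Eif2s3y-low libraries left out (0.144) or with the spread of each age weighted (0.157). Scn8a, the main nodal sodium channel, stood at 5429.8, 6619 and 6276 at P14 and 8176, 5858 and 9134 at P21, Sptbn4, the nodal spectrin, at 2618, 3103 and 3092 at P14 and 4669, 3036 and 5386 at P21, and Ank2, a large ankyrin of the axon, at 22793, 32735 and 27247 at P14 and 47596, 21448 and 56132 at P21. In these long transcripts P21 replicate 2 was the lowest P21 library, and of the 22 genes 15 are in the longest group. With the length trend removed 4 of the 22 rose, among them Scn8a (log2 fold change 0.415, adjusted p = 0.0489, limma), Sptbn4 (0.642, 0.0409) and Ank2 (0.58, 0.0175). Without P21 replicate 2 the 2 that rose were Sptbn4 (0.776, 0.0499, limma) and Ank2 (0.921, 0.00607). In each of these fits 1 of the 22 fell. Of 20 synaptic vesicle genes 1 fell and 0 rose, Stx1a, syntaxin 1A of the release machinery (log2 fold change -0.40 ± 0.11 SE, adjusted p = 0.0445, limma), a call that ended in 19 of the 30 other fits, among them each that left out 1 of the P14 libraries (0.0561 to 0.186). Of 19 channels of fast-firing neurons 1 fell and 0 rose, Kcna6, a potassium channel (log2 fold change -0.73 ± 0.20 SE, adjusted p = 0.0375, limma), a call that ended in 12 of the 30, among them those without P14 replicate 2 (0.0722), P14 replicate 3 (0.162), P21 replicate 2 (0.0912) or P21 replicate 3 (0.0549). Of 26 axon growth genes 1 fell, Dpysl3, a growth cone protein (8950.0, 8492 and 11316 at P14 and 6386, 4912 and 5968 at P21; log2 fold change -0.73 ± 0.12 SE, adjusted p = 0.0034, limma; 0.0521 with the Eif2s3y-low libraries left out).

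**Figure D4:**
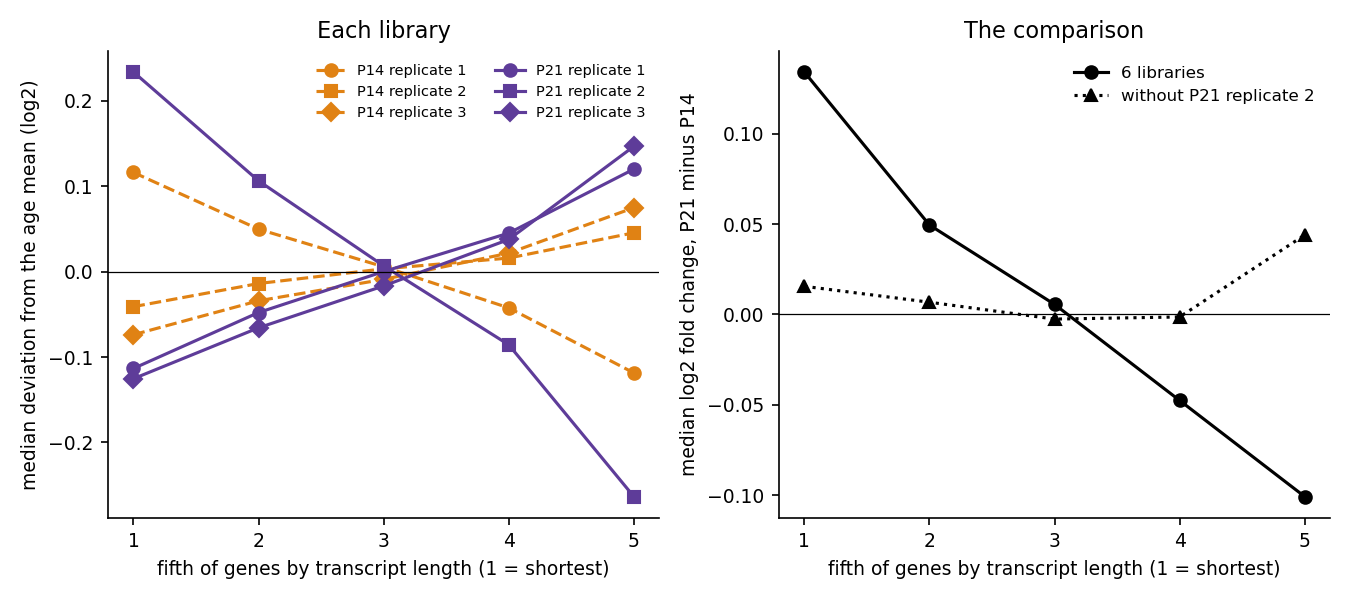
Left, median deviation of each library from its age mean (log2) over 5 equal groups of genes by transcript length; right, median log2 fold change, P21 minus P14, over the same groups with all 6 libraries and without P21 replicate 2. P21 replicate 2 falls from 0.234 in the shortest group to -0.264 in the longest group, and the slope of the comparison, 0.134 to -0.101, is gone without it (0.0155 to 0.0439).

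Transcript length went with the comparison through that library. Of the tested genes, 16449 had a length in GENCODE M21. Over 5 equal groups from the shortest to the longest, the median log2 fold change went from 0.134 to -0.101, the share that rose from 4.62% to 1.55% and the share that fell from 2.71% to 8.39%. Without P21 replicate 2 the medians of those groups were 0.0155 and 0.0439. P14 replicate 1 leaned the same way by less (0.116 to -0.119). With the trend over length removed in each library, 767 genes rose and 1158 fell, and 1339 of the 1537 called genes with a length were called again. The interstitial collagens (13 of 16 in the longest group) and basement membrane genes are long, while collagen maturation (3 of 29) and bone genes (4 of 21) are not.

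Some macrophage transcripts fell, again in calls that ended in several alternatives. Of 22 genes 8 fell and 0 rose (6.0% and 3.29% of all genes), with a median of -0.59. Csf1r, the receptor macrophages need to survive, stood at 3174, 3186 and 4975 normalized counts in the P14 libraries and 2479, 2124 and 2296 in the P21 libraries, with P14 replicate 3 the highest. It fell 1.61-fold (log2 fold change -0.69 ± 0.18 SE, adjusted p = 0.0322, limma), and was not called without P14 replicate 3 (0.132), P21 replicate 2 (0.0644) or P21 replicate 3 (0.0679), with the spread of each age weighted (0.197), or with the Eif2s3y-low libraries left out (0.149) or given a term (0.0628). Tmem119, a microglial marker that osteoblasts also make, was at 2170.1, 1710.1 and 3186 at P14 and 1229, 978 and 810.1 at P21. It fell 2.3-fold (log2 fold change -1.20 ± 0.21 SE, adjusted p = 0.00387, limma). Cx3cr1, the fractalkine receptor of microglia and other macrophages, fell 1.59-fold (-0.66 ± 0.17), and was not called without P14 replicate 3 (0.113, limma) or P21 replicate 3 (0.0783), with the Eif2s3y-low libraries left out (0.0731) or with the spread of each age weighted (0.148). Lyz2, lysozyme, stood at 2050.1, 1352 and 1674 at P14 and 3539, 2279 and 1749 at P21 and Aif1 and Itgam were not called. The 8 falls were 1 without P14 replicate 3, 1 without P21 replicate 3, 4 without P14 replicate 1, 5 without P21 replicate 2, P3 replicate 2 or 3, P7 replicate 5 or adult replicate 3, 1 with the spread of each age weighted, 2 with the Eif2s3y-low libraries left out, 4 with a term for them and 0 in the fit of the 6 libraries alone. All 16 interferon-induced genes had a positive log2 fold change, with a median of 0.53, and 1 rose (3 without P3 replicate 1 or without P21 replicate 3). That was Ifit1, an antiviral RNA-binding protein, at 426, 437 and 379 at P14 and 838, 1306 and 1018 at P21 (log2 fold change 1.33 ± 0.29 SE, adjusted p = 0.0127, limma), not called without P14 replicate 3 (0.0555), with the Eif2s3y-low libraries left out (0.14) or with the spread of each age weighted (0.107).

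Lists of vessels, blood, general metabolism and stress are given beside the 9.29% of all genes that were called. Mfsd2a, the lipid transporter of the endothelial barrier, was at 3616, 3636 and 3559.6 normalized counts in the P14 libraries and 2426, 2324 and 2404 in the P21 libraries. It fell 1.51-fold (log2 fold change -0.60 ± 0.08 SE, adjusted p = 0.000778, limma), the only one of 15 endothelial genes called. The pericyte genes Kcnj8, a potassium channel, and Rgs5 fell 1.75-fold and 1.41-fold, the call of Rgs5 ending without P14 replicate 2 (0.0675) or 3 (0.0783), with the Eif2s3y-low libraries left out (0.149) or with the spread of each age weighted (0.19), and 9 other mural genes were not called. Red cell transcripts summed to 35546, 17255 and 17579 at P14 and 42168, 51212 and 20297 at P21, with 0 of 11 genes called (3 rose without P14 replicate 1), all 11 with a positive log2 fold change and a median of 1.63. Neutrophil transcripts summed to 7059, 1761 and 2035 and to 18600, 5284 and 2992, also with 0 of 11 called (1 rose without P14 replicate 1), all 11 positive and a median of 1.01. P21 replicate 1 held the most neutrophil transcript. At an unadjusted p under 0.05 (limma) 3 of the red cell and 1 of the neutrophil genes passed, and edgeR and DESeq2 called 0 of either. In limma 0 of 22 ribosomal protein, 0 of 26 respiratory chain, 0 of 19 glycolysis and 0 of 25 cell cycle genes were called in either direction, with medians of 0.15, 0.12, 0.09 and 0.21. Their members with an unadjusted p under 0.05 were 0, 2, 3 and 2. edgeR called 0 of any of these lists and DESeq2 1 respiratory chain gene. Of 13 stress genes 2 rose and 2 fell. With the spread of each age weighted 1 rise and 0 falls were called, and in the fit of the 6 libraries alone 0 of either. The cytosolic chaperones Hsp90aa1 (1.52-fold) and Hspa1a (1.62-fold), which shares reads with its near-identical copy Hspa1b, rose. Hspa1a was not called without P14 replicate 2 (0.0501) or 3 (0.075), with the Eif2s3y-low libraries left out (0.116) or with the spread of each age weighted (0.137). Hspa5, the chaperone of the endoplasmic reticulum where collagen is folded, fell 1.23-fold (31394, 29617 and 30796 at P14 and 24373, 27599.5 and 22725 at P21; log2 fold change -0.30 ± 0.08 SE, adjusted p = 0.0289, limma), and was not called when any 1 of the P14 libraries (0.0547 to 0.0942), P21 replicate 1 (0.0641) or P21 replicate 3 (0.0866) was left out, with quantile normalization (0.0741), with the length trend removed (0.0568) or with the spread of each age weighted (0.121). Nr1d1, a clock repressor, rose 1.76-fold (1582, 1789.7 and 1387 at P14 and 2290.5, 2703 and 3462 at P21; log2 fold change 0.82 ± 0.17 SE, adjusted p = 0.0115, limma; 0.0595 without P14 replicate 3 and 0.0835 with the spread of each age weighted), and the hour of dissection was not given in the labels used here.

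**Figure D5:**
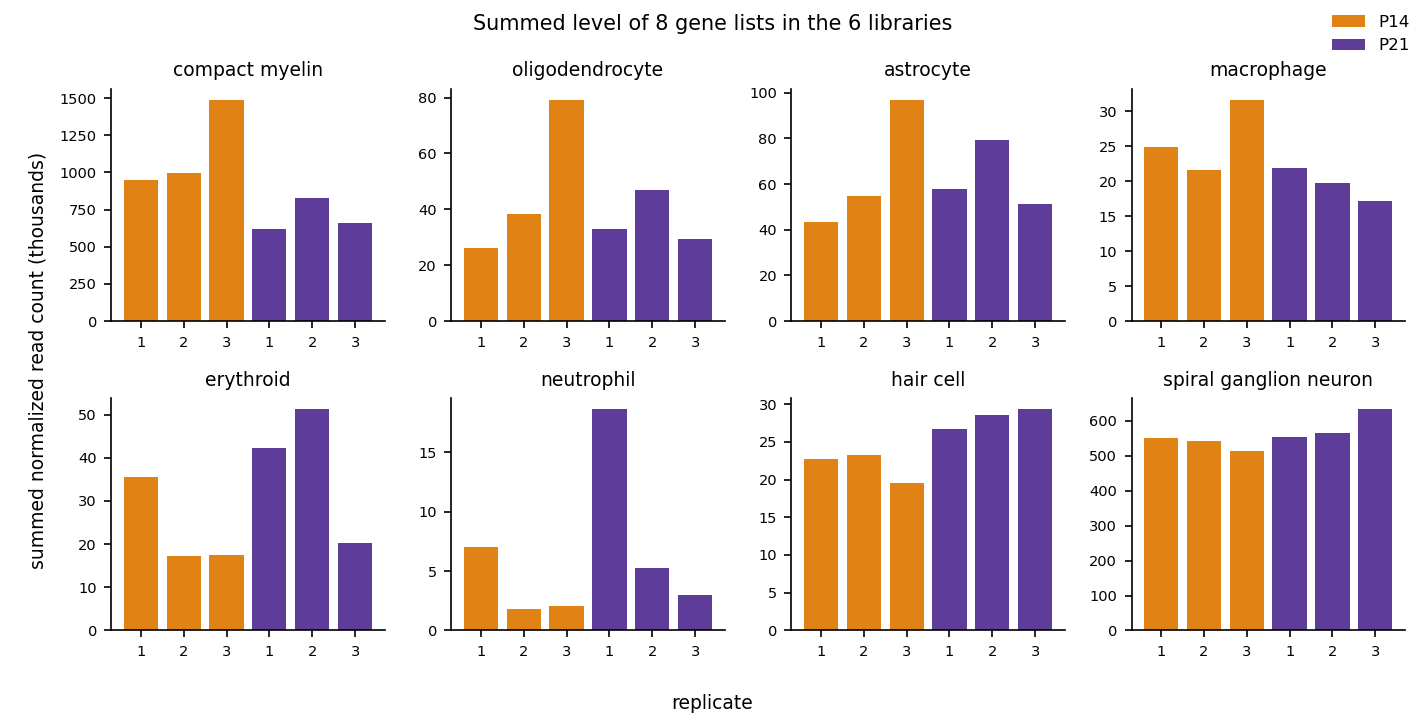
Summed normalized read count of 8 gene lists in the 3 P14 (orange) and 3 P21 (purple) libraries, bars from 0. P14 replicate 3 stands out in the oligodendrocyte, astrocyte and compact myelin sums, P21 replicate 1 in the neutrophil sum, and all 3 hair cell sums at P21 are above those at P14.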

How the data were processed

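Bulk RNA of 15 auditory nerve libraries was sequenced, and the 6 libraries of P14 and P21 are compared here, grouped by their labels. The authors deposited a signal per gene and library, which by its values is a read count divided by 1 size factor per library. The authors' deposited table also holds p-values, FDR values and a signed fold change (a score, negative where P21 is lower) of their own P21 against P14 comparison, per the file headers. Partek, TopHat2, DESeq2 and mm10 are named per the submitters' processing notes; the annotation, the counting rule and the use of strand were not given in the sources used here. The authors' deposited table lists 1047 genes higher and 1445 lower at P21 at an FDR under 0.05, of 17097 with an FDR. Whole reads could be recovered from the deposited signal (99.94% of positive values within 0.1 of a whole number), with 38114662 to 42258737 reads per library. Values were tested with limma 3.58.1 (R 4.3.3; log2(value + 1), trend and robust moderation) over all 15 libraries, for genes with a value of 10 or more in 3 libraries. On simulated counts of the P21 against P14 comparison, drawn from the means of the 16723 genes, this test recovered 41.8%, 73.1% and 87.9% of genes changed 1.5-, 2- and 4-fold, and 4.93% of its calls were false. The simulation gave all ages the same dispersion per gene, with no library that stood apart and no length trend. In the data P14 and P21 varied more than the other ages, so 4.93% does not measure the share of false calls there. Alternatives were count models fitted to the recovered reads (limma-voom, DESeq2 1.42.0, edgeR 4.0.16), other filters, pseudocounts and scalings, single libraries left out, and the Eif2s3y-low libraries left out or given a term. Weighting the spread of each age and removing the length trend were chosen after seeing the data. Genes are named by size of change (the 10 largest rises and falls among called genes with a mean of at least 10 CPM in the higher age, no overlap between the ages and no predicted symbol) and from 54 lists (up to 4 called members a direction by adjusted p, members against the list's direction, and members described by role). The comparison, the lists and the named genes were chosen with earlier results of these data known. Positions are mm10, lengths GENCODE M21, promoters RefSeq.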

Additional observations from a re-analysis of the deposited data

How the results depend on the processing

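The counts of genes depended on the fit. Over P14 and P21 libraries only, 137 genes were called, 27 higher, 110 lower and 83 by at least 2-fold. With DESeq2 on recovered reads 2519 were called, of which 1063 were higher. With the spread of each age weighted, 342 were called, 57 higher, 285 lower and 130 by at least 2-fold. With the Eif2s3y-low libraries left out 754 were called, 205 higher and 549 lower. Against a minimal log2 fold change of 1, 16 were called, 2 higher and 14 lower. When 1 library was left out the range was 631 to 1969 called, 153 to 767 higher, 478 to 1202 lower and 173 to 369 by at least 2-fold, the lowest values without P14 replicate 3, the highest 3 without P21 replicate 2 and the highest count of 2-fold changes without P21 replicate 1. The P14 and P21 libraries share replicate numbers, and the deviations of same-numbered libraries correlated at 0.0885, -0.1325 and 0.0255, so the numbers were not taken to pair the mice; with the replicate block, over these 6 libraries, 41 genes were called, 4 higher, 37 lower and 41 by at least 2-fold. The share of lower among called genes was 64.6% and moved by more than 10 percentage points in the fit of the 6 libraries (80.3%), with the block (90.2%), against the minimal fold change (87.5%), with the spread of each age weighted (83.3%) and without P14 replicate 3 (75.8%). Sv2c, a synaptic vesicle protein that was not called, stood at a log2 fold change of -0.12 and turned to 1.085 without P21 replicate 2, and to -0.8299 without P21 replicate 3. The cause of these changes was not tested.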
